A study of Mus musculus with 4 samples.

Results

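The transcripts described here are those of 10 genes of the p53 pathway in mouse spermatogonial cultures, out of the 32285 genes counted. They are Trp53, which encodes p53 itself, and 9 of its known targets, Mdm2, Cdkn1a, Ccng1, Sesn2, Bax, Bbc3, Phlda3, Zmat3 and Gdf15. The genes were chosen by their direction in vesicle-treated against vehicle cultures in germ cells and in feeder cells of these same libraries, so that contrast is given as a description and without a test. Testes of 3 male mice at postnatal day 6 gave the cells of a culture, of which the Thy1+ fraction, rich in undifferentiated spermatogonia, was sorted with magnetic beads and kept on a feeder layer of STO cells, which are mouse embryonic fibroblasts of an established line. They received PBS (vehicle) or 1 μg/mL of extracellular vesicles (EVs) from whole testes of postnatal day 7 mice for 3 days, and clumps of cells were digested and loaded for droplet single-cell RNA sequencing. Each arm had 2 libraries, which the labels call biological replicates, with no genetic change in any of them. Expression was analysed in vehicle 1, vehicle 2 and EV 1 and was not analysed here in EV 2, so the EV arm is 1 library and its differences have no replicate check. Purchased mice were C57BL/6. Whether the feeder cells had been made to stop dividing is not given in the sources used here. The label "primary spermatogonial cultures" covers both the germ cells and the feeder cells, and the 2 were separated here by their transcripts.

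The protein p53 is a transcription factor that is kept scarce by Mdm2, a ubiquitin ligase that is itself a p53 target, and it accumulates when DNA is damaged or when cells are stressed. Its targets stop the cell cycle (Cdkn1a, which encodes the cyclin-dependent kinase inhibitor p21), promote cell death through mitochondria (Bax and Bbc3, the latter known as Puma) or feed back on the pathway. Cultured fibroblasts commonly carry abundant p21, whereas spermatogonial stem cells are cycling germline cells in which the p53 pathway is known for guarding against DNA damage. Gdf15, a secreted stress cytokine, and Sesn2, a stress-induced inhibitor of growth signalling, also respond to the transcription factor ATF4.

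The start of Cdkn1a (ENSMUSG00000023067, GRCm38 chr17:29090976-29100727, plus strand) is shown because Cdkn1a is the classical p53 target and had the most transcripts of the 10 in feeder cells. RefSeq promoter windows, 250 bases before to 50 bases after an annotated start in the GRCm38.p6 build, were found for 9 of the 10 genes (13 windows), all but Zmat3. They were searched for the p53 decamer, the 10-base unit of the response element, which reads the same on both strands. Below are the window at 1 of the 2 annotated starts of Cdkn1a (chr17:29090729-29091028, plus strand) and that of Ccng1 (chr11:40755237-40755536, minus strand), a member that was lower in the feeder cells of EV 1 where Cdkn1a stayed in the vehicle range. Capitals mark the decamers.
Cdkn1a: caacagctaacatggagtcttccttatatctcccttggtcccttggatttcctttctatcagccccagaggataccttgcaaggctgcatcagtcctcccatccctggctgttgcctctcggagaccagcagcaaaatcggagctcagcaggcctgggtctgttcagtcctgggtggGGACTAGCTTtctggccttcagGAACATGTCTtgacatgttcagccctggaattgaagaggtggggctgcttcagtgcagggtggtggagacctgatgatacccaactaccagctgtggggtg
Ccng1: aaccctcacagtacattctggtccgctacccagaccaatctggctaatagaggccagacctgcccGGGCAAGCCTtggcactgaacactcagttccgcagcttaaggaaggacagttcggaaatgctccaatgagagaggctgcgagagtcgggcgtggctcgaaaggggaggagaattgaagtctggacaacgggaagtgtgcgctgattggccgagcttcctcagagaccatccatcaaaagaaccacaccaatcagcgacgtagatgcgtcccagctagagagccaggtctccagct
The window at the other start of Cdkn1a held 0 decamers. The one shown held 2, GGACTAGCTT starting 73 bases and GAACATGTCT starting 51 bases before the start, with 12 bases between them. It was the single member window with a pair no more than 13 bases apart, an arrangement found in 24 of 32851 windows genome-wide (0.0731%). In Ccng1 the decamer GGGCAAGCCT began 185 bases before the start, in Mdm2 GAACTTGCCT 186 bases, in Bax AGGCAAGCTT 201 bases and in Trp53 GGACTTGCCC 75 bases before it. A decamer was thus present for 5 of the 9 genes, against 9.55% of all genes with a window. These are matches of letters and not measured binding sites, and p53 elements are also known outside such windows, as in introns.

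Cells were classed by their own UMIs (unique molecular identifiers, 1 per captured RNA molecule). A cell with at least 2 UMIs of Dazl, Tex15, Stk31 and Epcam in sum, and more of them than of Col1a1, Col1a2, Sparc and Dcn, was a germ cell, and the reverse was a feeder cell. Of 8263, 8637 and 4779 cells kept in vehicle 1, vehicle 2 and EV 1, 4411, 4765 and 226 were germ cells and 2355, 2490 and 2507 were feeder cells. The germ class of EV 1 therefore rests on 324307 UMIs, in which 1 UMI is worth 3.08 CPM (counts per 1000000 UMIs of the class), against 9454854 or more in the vehicle libraries. Its median depth was 1325 UMIs per cell against 1941 and 2089, and 33.6% of its cells stood at exactly 2 marker UMIs, against 16.0% and 13.9%. Germ genes outside the rule (Ddx4, Dnd1, Sall4, Mael, Tdrd5 and Taf4b) summed to 522, 527 and 512 CPM in germ cells and to 16.9, 13.7 and 3.54 in feeder cells. Summed markers of Leydig cells, macrophages and endothelial cells stayed at or under 27.8 CPM in every class and library, and Sertoli markers ranged from 26.2 to 49.3 in germ cells and from 277 to 298 in feeder cells. The rule has no marker that separates STO cells from testis somatic cells, and the source of the Sertoli markers was not tested. Any pair of libraries shared at most 22 barcodes. Values below are CPM of the class unless they are named as UMIs. They are not divided by gene length, since a UMI stands for a molecule. Intervals are 95% and cover counting error only.

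The p53 targets were feeder cell transcripts for the most part. Cdkn1a stood at 931, 1044 and 996 CPM in the feeder cells of vehicle 1, vehicle 2 and EV 1, and at 61.4, 57.5 and 210 in the germ cells. The next highest member in feeder cells by the vehicle mean was Bax, at 340, 314 and 199. Phlda3, at 297, 327 and 203, was above Bax in vehicle 2 and EV 1, and Mdm2, at 202, was above it in EV 1. The class values of Cdkn1a did not overlap, and feeder cells held 85.8%, 88.1% and 75.5% of all its UMIs in kept cells.

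Germ and feeder sums of the same libraries were compared with edgeR's quasi-likelihood test, with the library as a block and Benjamini-Hochberg adjustment over 15653 genes. All 9 members tested were lower in germ cells, where 41.7% of all genes tested were lower and 40.1% were higher. The log2 difference of germ from feeder cells was -4.05 for Cdkn1a (SE 0.22, adjusted p = 1.54e-13) and -3.89 for Phlda3, which encodes a repressor of Akt signalling (SE 0.18, adjusted p = 1.19e-14). Zmat3, which encodes an RNA-binding protein, followed at -2.76 (SE 0.12), then Ccng1, which encodes the atypical cyclin G1, at -2.21 (SE 0.20), Bbc3 at -2.18 (SE 0.21) and Mdm2 at -1.68 (SE 0.15). Trp53 at -1.18 (SE 0.11) and Bax at -0.95 (SE 0.16) were closest between the classes among those with a firm call. Sesn2, at -0.40 (SE 0.16, adjusted p = 0.027), lost its call without the library block (adjusted p = 0.145), without vehicle 1 (0.289), without vehicle 2 (0.182) and with DESeq2 (0.184). Gdf15 had too few UMIs to pass the filter of this fit. With no filter on low counts it was called at -1.92 (edgeR adjusted p = 0.0177), and with DESeq2, at -1.45, it was not (adjusted p = 0.399). The libraries were not alike, since on class totals 3 members of EV 1 were higher in its germ cells than in its feeder cells, Ccng1 at 105 against 94.1 CPM, Bax at 256 against 199 and Bbc3 at 12.3 against 9.16. In vehicle 2 Sesn2 was higher in germ cells on class totals, at 11.1 against 10.7 CPM, and in vehicle 1 it stood at 9.20 against 9.86. With TMM factors over the 6 sums, the log2 difference of germ from feeder cells in EV 1 was -0.62 for Ccng1, -0.42 for Bax and -0.35 for Bbc3.

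In the vehicle libraries the Cdkn1a level of germ cells was a small percentage of that of feeder cells, 6.60% in vehicle 1 and 5.51% in vehicle 2, and in EV 1 it was 21.05%. The 11 feeder markers outside the class rule ranged widely by the same measure in the vehicle libraries, from 3.33% and 3.30% for Col5a2 to 57.9% and 60.3% for Col5a1 and to 164% and 149% for Fbn1, and their summed level stood at 14.5% and 14.0%. Phlda3 stood at 9.30% and 7.08%, Zmat3 at 16.9% and 19.2% and Ccng1 at 24.0% and 22.7%. How much of these germ cell levels is free RNA of feeder cells was not tested.

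**Figure D1:**
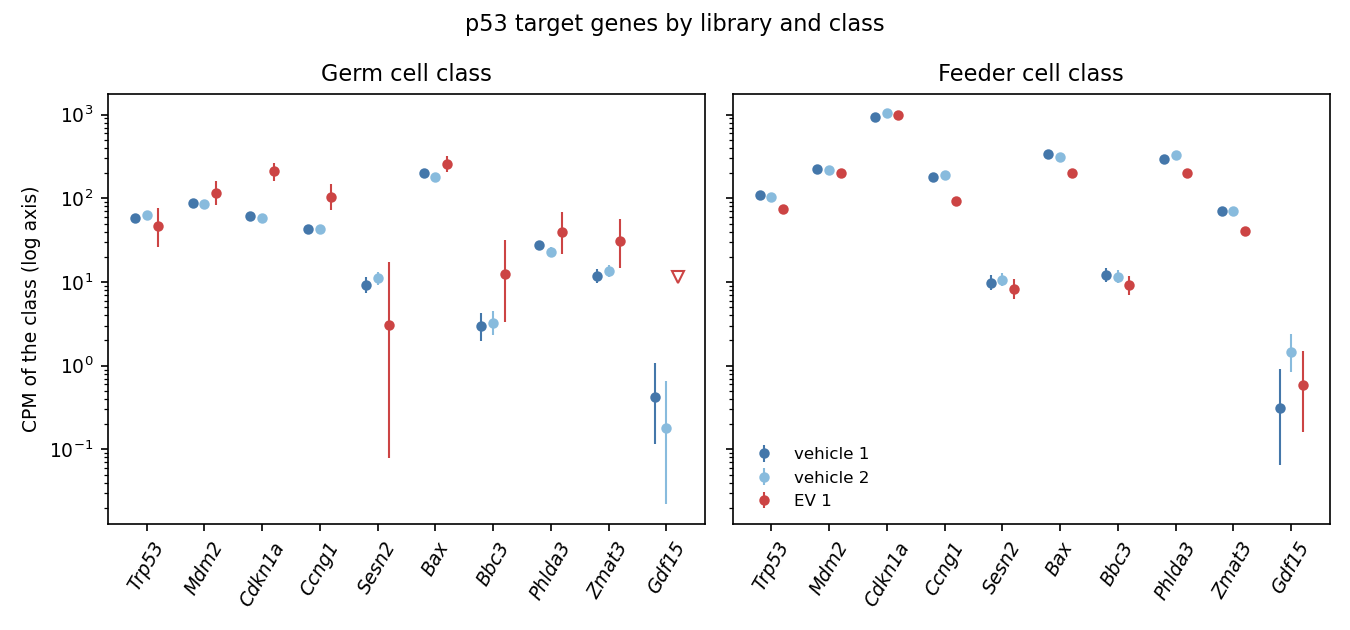
CPM of the class on a log axis for the 10 genes in the germ cell class (left) and the feeder cell class (right), 1 point per library, with bars for 95% Poisson counting intervals. The open triangle is the upper limit for Gdf15, which had 0 UMIs in EV 1 germ cells. Cdkn1a is the highest member in feeder cells in all 3 libraries, and Bax is the highest in germ cells.

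Ranked by the vehicle mean, feeder cells ran from Cdkn1a at 987 ± 79.8 (SD, n = 2) through Bax at 327 ± 18.1, Phlda3 at 312 ± 21.1, Mdm2 at 222 ± 2.64, Ccng1 at 186 ± 7.79, Trp53 at 107 ± 2.41, Zmat3 at 70.5 ± 0.311, Bbc3 at 11.8 ± 0.443 and Sesn2 at 10.3 ± 0.600 CPM down to Gdf15 at 0.895 ± 0.822. Bax and Phlda3 overlapped between libraries, and the other neighbours did not. In germ cells the order began with Bax at 191 ± 15.7, Mdm2 at 86.7 ± 0.622, Trp53 at 60.7 ± 2.74 and Cdkn1a at 59.5 ± 2.80, of which Trp53 and Cdkn1a overlapped. Gdf15 was nearly silent in both classes, with 4, 2 and 0 UMIs in germ cells and 3, 16 and 4 UMIs in feeder cells of vehicle 1, vehicle 2 and EV 1, and no fold is given for it.

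In germ cells, several targets were higher in EV 1 than in both vehicle libraries, on few UMIs. Among the 9 members with at least 50 UMIs in the class, 5 were at least 1.5-fold higher (Cdkn1a, Ccng1, Zmat3, Bbc3 and Phlda3) and 1 was at least 1.5-fold lower (Sesn2, from 1 UMI in EV 1, with an interval of its ratio that reaches 1.70), where 23.5% of all 13363 genes with that many UMIs were higher and 14.7% were lower. The median log2 ratio of EV 1 over the vehicle mean was 0.71 for the members and 0.09 for all these genes. As the genes were chosen on this contrast, nothing is read from these counts.

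Among the regulators, Trp53 stood at 58.8, 62.7 and 46.3 CPM in the germ cells of vehicle 1, vehicle 2 and EV 1, and its ratio to the pooled vehicle libraries was 0.760 (0.424 to 1.26). Mdm2 stood at 87.2, 86.3 and 117, with a ratio of 1.35 (0.953 to 1.86). In EV 1, Trp53 lay below and Mdm2 above both vehicle libraries.

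Of the genes that restrain the cell cycle, Cdkn1a went from 61.4 and 57.5 to 210 CPM (581, 631 and 68 UMIs), a ratio of 3.53 (2.73 to 4.51). Ccng1 went from 43.4 and 43.5 to 105 (410, 478 and 34 UMIs), a ratio of 2.41 (1.66 to 3.40). Sesn2 stood at 9.20, 11.1 and 3.08, the last from 1 UMI, with a ratio of 0.301 (0.0076 to 1.70). For Cdkn1a and Ccng1 the vehicle libraries lay close together and EV 1 lay far above them. In cells without G2/M transcripts, however, the log2 ratio of Ccng1 was 0.15 in place of 1.29 (5 UMIs in EV 1), and that of Cdkn1a was 1.32 in place of 1.83 (15 UMIs).

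Among the cell death genes, Bax, whose protein opens the outer mitochondrial membrane, stood at 202, 180 and 256 CPM, a ratio of 1.35 (1.07 to 1.67). Bbc3 stood at 2.96, 3.28 and 12.3, the last from 4 UMIs, a ratio of 3.94 (1.04 to 10.6). Phlda3 stood at 27.6, 23.1 and 40.1, a ratio of 1.59 (0.841 to 2.74), and its log2 ratio of 0.71 fell short of 1.5-fold in cells without G2/M transcripts (0.19) and as a mean over cells (0.25). Zmat3 stood at 11.8, 13.6 and 30.8, the last from 10 UMIs, a ratio of 2.41 (1.14 to 4.51), and its log2 ratio of 1.34 was 0.73 in cells without G2/M transcripts. EV 1 lay above both vehicle libraries in each case.

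Of the 11 feeder markers, 3 were higher in the germ cells of EV 1 than in those of both vehicle libraries (Col3a1, Col5a2 and Lox, from 7, 2 and 7 UMIs in EV 1), Bgn lay between them at 28.8, 25.7 and 27.8 CPM, and the other 7 were lower, among them Col6a1 at 10.8, 9.75 and 9.25 and Pdgfrb, which had 0 UMIs in EV 1. As a percentage of the feeder level 6 of the 11 were higher in EV 1. Summed, the 11 stood at 14.5%, 14.0% and 18.2% of the feeder level. Feeder RNA at these percentages would bring 135, 146 and 181 CPM of Cdkn1a, more than was measured in the vehicle libraries. It would bring 43.2, 45.7 and 36.9 CPM of Phlda3, also more than was measured in the vehicle libraries. For Ccng1 it would bring 26.3, 26.8 and 17.1, and for Zmat3 10.2, 9.88 and 7.43. Col3a1, Col5a2 and Lox alone, a choice made after their values were seen, stood at 5.95%, 5.01% and 13.2%, which would bring 55.4, 52.3 and 132 CPM of Cdkn1a, of the 61.4, 57.5 and 210 measured. As these 3 are the markers that were higher in EV 1, their higher percentage there comes with that choice, and nothing is read from it. The same percentages would bring 17.7, 16.4 and 26.9 CPM of Phlda3, of 27.6, 23.1 and 40.1 measured, 10.8, 9.61 and 12.5 of Ccng1, and 4.18, 3.54 and 5.42 of Zmat3. The part of free RNA in the germ cell values of these genes was not tested.

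The scale also moves this contrast in germ cells. Scaling by the total of the class put 61.5% of the genes past 1.5-fold on the higher side, scaling with TMM factors 28.5% and with DESeq2 size factors 49.1%. The median of all genes shifted by -0.38 and -0.14 on the log2 scale. No member changed sign, but Mdm2 and Bax, at 0.45 and 0.43 on class totals, were near 0 with TMM factors (0.07 and 0.05), Phlda3 at 0.33 and 0.57 fell short of 1.5-fold under both scalings, and Trp53 at -0.73 passed it downward under TMM.

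**Figure D2:**
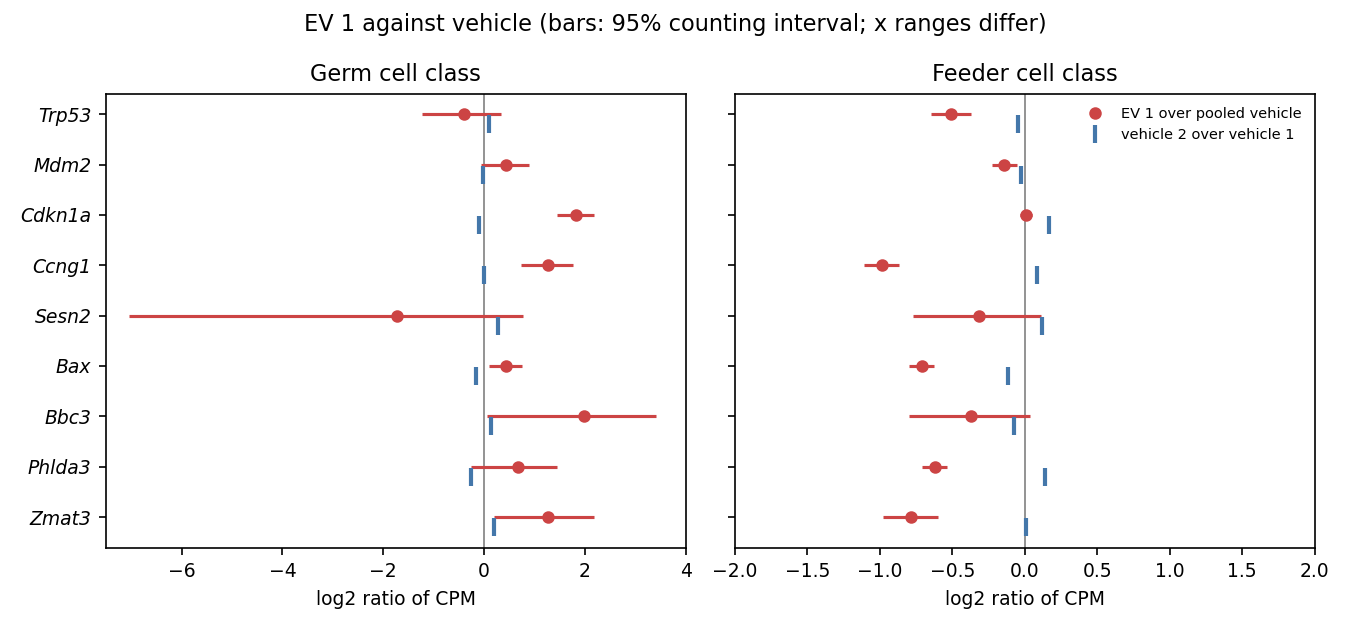
Log2 ratio of CPM in EV 1 over the pooled vehicle libraries for 9 members in the germ cell class (left) and the feeder cell class (right), with 95% counting intervals, and the log2 ratio of vehicle 2 over vehicle 1 (blue ticks). The x ranges differ between the panels. The germ cell intervals are the wider ones, that of Sesn2 most of all, and in feeder cells Ccng1 is the lowest and Cdkn1a the highest.

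In feeder cells, most targets lay below both vehicle libraries in EV 1, some of them by little, while Cdkn1a did not. Of the 9 members with at least 50 UMIs, 4 were at least 1.5-fold lower (Ccng1, Zmat3, Bax and Phlda3) and 0 were higher by that much, where 13.7% of all 12897 genes were lower and 6.83% were higher. The median log2 ratio was -0.51 for the members and -0.13 for all these genes. DESeq2 size factors changed the share on the higher side from 33.3% to 44.9% of the genes past 1.5-fold and, like TMM factors, left 3 members lower, as Phlda3 fell short. Of all genes, 10.6% were that much lower with DESeq2 size factors and 11.3% with TMM factors. Phlda3, at -0.62, also fell short with at least 4 marker UMIs (-0.57) and without vehicle 2 (-0.55).

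Cdkn1a, at 931, 1044 and 996 CPM, lay inside the vehicle range in EV 1, and its ratio to the pooled vehicle libraries was 1.01 (0.978 to 1.03) from 6747 UMIs. Ccng1 stood at 181, 192 and 94.1, a ratio of 0.504 (0.463 to 0.549). Sesn2 stood at 9.86, 10.7 and 8.27, a ratio of 0.802 (0.586 to 1.08). Ccng1 and Sesn2 lay below both vehicle libraries in EV 1, Sesn2 on 56 UMIs.

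Trp53 stood at 109, 105 and 75.0 CPM, a ratio of 0.703 (0.637 to 0.775). Mdm2 stood at 224, 221 and 202, a ratio of 0.907 (0.853 to 0.964). For both regulators EV 1 was below both vehicle libraries, by little in the case of Mdm2.

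Bax stood at 340, 314 and 199 CPM (ratio 0.611, 0.575 to 0.648), and Phlda3 at 297, 327 and 203 (ratio 0.650, 0.613 to 0.689). Zmat3 stood at 70.2, 70.7 and 40.9 (ratio 0.580, 0.508 to 0.660). Bbc3 stood at 12.2, 11.5 and 9.16, with an interval of the ratio of 0.576 to 1.03. The feeder cells of EV 1 differed from those of the vehicle libraries in depth too, with a median of 2439 UMIs per cell against 3628 and 3896.5, and in germ gene RNA, which stood at 0.692% of the germ cell level against 3.24% and 2.59%. Of the 11 feeder markers outside the class rule, 8 were lower in the feeder cells of EV 1 than in both vehicle libraries, such as Bgn at 414, 418 and 251 CPM, and 3 were higher (Col5a2, Fstl1 and Lox), with sums of 1269, 1315 and 1019. Cells with exactly 2 marker UMIs made up 13.6%, 12.3% and 26.8% of the class, and 4 macrophage markers, all above 0, summed to 8.49, 8.40 and 20.8 CPM. Taking out the germ cell share left the median of the members at -0.49, and asking for at least 4 marker UMIs left it at -0.47. Shares of cells with a UMI at equal depth are given below. Beyond these, the part of the listed differences in the ratios was not tested.

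**Figure D3:**
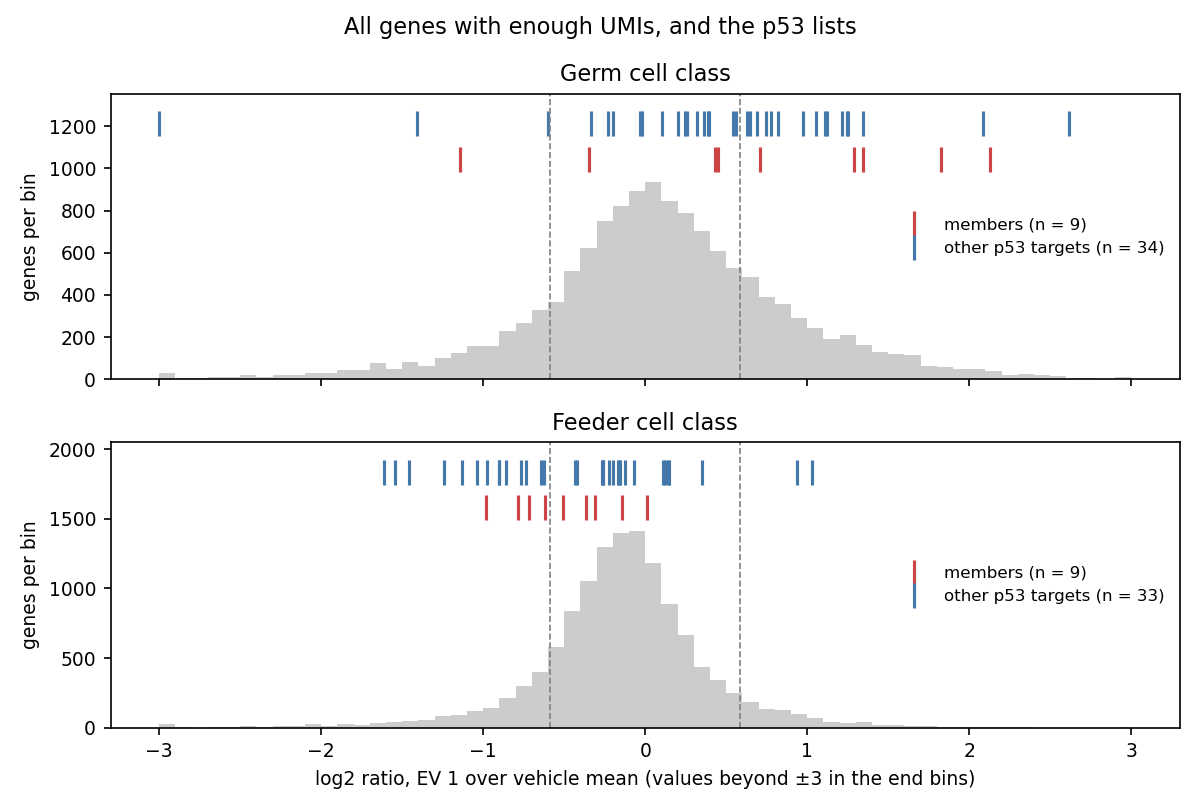
Histogram of the log2 ratio of EV 1 over the vehicle mean for all genes with at least 50 UMIs in the germ cell class (top) and the feeder cell class (bottom), with ticks for the members and for the other p53 targets and dashed lines at 1.5-fold. The members spread from -1.14 to 2.13 in germ cells and from -0.98 to 0.01 in feeder cells.

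A further 1497, 1382 and 2046 kept cells carried too few or equal marker UMIs and were in neither class. They made up 42.8% of the cells of EV 1. Cdkn1a stood at 388, 400 and 729 CPM in them and Mdm2 at 189, 192 and 250, both highest in EV 1, as were Phlda3 at 141, 150 and 182 and Bbc3 at 6.55, 8.94 and 15.4. Ccng1 at 114, 139 and 99.8, Bax at 216, 189 and 152, Trp53, Zmat3 and Sesn2 were lowest there. Their summed independent germ markers were 231, 209 and 33.3 CPM, so these cells were a different mixture in EV 1. Counting them as feeder cells left the median of the members at -0.47, with Phlda3 at -0.52 short of 1.5-fold. Mdm2 then stood at 217, 216 and 216 CPM, with EV 1 between the vehicle libraries, and Bbc3 at 11.1, 11.1 and 11.05. Over all kept cells Cdkn1a stood at 486, 534 and 893, a value that also follows the larger share of feeder cells in EV 1.

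The share of cells with a UMI was compared after each cell had been thinned to 1000 UMIs, which left out 146, 112 and 48 germ cells and 87, 56 and 185 feeder cells. Cdkn1a was detected in 51.1% (49.1 to 53.2), 53.4% (51.4 to 55.4) and 56.5% (54.5 to 58.6) of the feeder cells of vehicle 1, vehicle 2 and EV 1, by Wilson intervals, and in 78.1%, 81.0% and 76.9% before thinning. In germ cells it was detected in 5.89%, 5.14% and 15.7% (11.1 to 21.8), and in 11.3%, 11.2% and 22.6% before thinning. The feeder share was slightly above both vehicle shares in EV 1 while the summed level was not, so no order is read from it.

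Ccng1 was detected in 16.4%, 16.8% and 7.84% of feeder cells and in 3.82%, 3.74% and 7.30% (4.32 to 12.1) of germ cells. Phlda3 was detected in 24.7%, 25.3% and 16.9% of feeder cells, and Bax in 27.2%, 25.6% and 18.5%. In germ cells Bax was detected in 17.7%, 15.8% and 15.2% (10.6 to 21.2), so its share in EV 1 lay below both vehicle libraries where its summed level lay above them, and no order is read from it. The lower sums of Ccng1, Phlda3 and Bax in the feeder cells of EV 1 thus went with fewer cells having a UMI at equal depth. Feeder cells with a UMI of 3 or more members made up 20.8%, 21.8% and 11.8%, and germ cells with that many 0.868%, 0.838% and 3.37%, the last being 6 of 178 cells.

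Within feeder cells, Phlda3, Bax and Ccng1 were found more often in cells that also had a Cdkn1a UMI. At 1000 UMIs, Phlda3 was detected in 29.7%, 31.2% and 19.0% of cells with Cdkn1a and in 19.4%, 18.6% and 14.2% of cells without it. Bax was detected in 32.3%, 30.6% and 21.6% against 21.9%, 19.8% and 14.4%, and Ccng1 in 18.4%, 20.5% and 8.76% against 14.2%, 12.6% and 6.64%. The Wilson intervals of the paired shares did not overlap for Phlda3 and Bax in any library, and for Ccng1 they overlapped in vehicle 1 and EV 1. Of the 3363, 3447 and 3177 genes other than Cdkn1a seen in at least 5% of these cells, 10.9%, 10.1% and 13% had a higher share with Cdkn1a and intervals apart.

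Mdm2 was detected in 22.0% against 14.3% in vehicle 1 and in 20.3% against 15.7% in vehicle 2, and in EV 1 in 17.8% (15.8 to 20.0) against 18.0% (15.8 to 20.5). Trp53 differed by no more than 2.03 percentage points in any library and Zmat3 by no more than 1.80. Sesn2 was detected in 0.862% against 1.35% in vehicle 1, in 1.31% against 0.970% in vehicle 2 and in 1.14% against 0.396% in EV 1. Bbc3 differed by at most 0.657 percentage points and Gdf15 by at most 0.198. Cells of 1 library share a culture and a run, so these shares describe the libraries and were not tested across them.

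**Figure D4:**
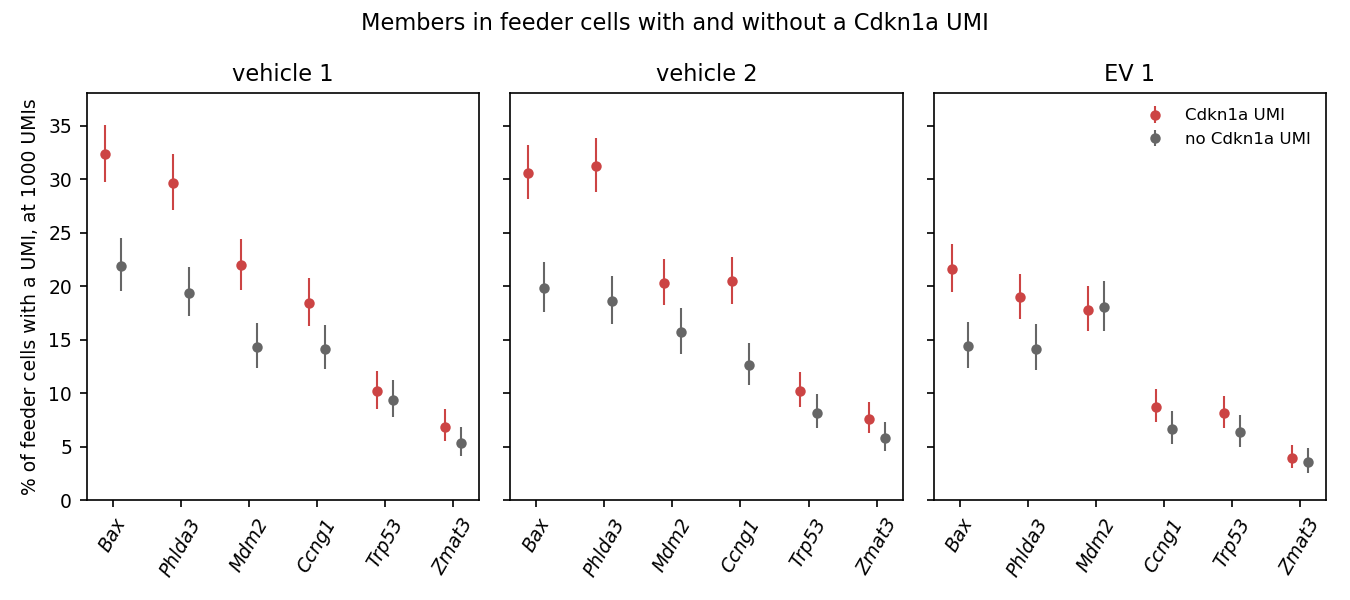
Percentage of feeder cells with a UMI of each gene at 1000 UMIs per cell, among cells with (red) and without (grey) a Cdkn1a UMI, for each library, with 95% Wilson intervals. Bax and Phlda3 stand apart in all 3 libraries, and Mdm2 in the vehicle libraries but not in EV 1.

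The members were also compared between cells with and without transcripts of the G2 and M phases, a contrast that played no part in choosing them. Few feeder cells had at least 2 UMIs of the 10 G2/M genes at 1000 UMIs (76, 77 and 21 cells, against 1984, 2171 and 2193 with 0), whereas 2551, 2806 and 77 germ cells had them (against 954, 1029 and 69). In feeder cells, Ccng1 stood at 393, 315 and 188 CPM with G2/M transcripts and at 166, 185 and 90.4 without. Mdm2 stood at 331, 367 and 352 with them and at 215, 207 and 197 without. Both were higher in cells with G2/M transcripts in all 3 libraries.

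By edgeR with the library as a block, over 11778 genes, 3 of the 9 members tested were higher in feeder cells with G2/M transcripts and 0 were lower, where 7.85% of all genes tested were higher and 5.6% were lower. The log2 difference was 0.92 for Ccng1 (SE 0.14, adjusted p = 3.51e-09), 0.64 for Mdm2 (SE 0.14, adjusted p = 8.92e-05) and 0.56 for Trp53 (SE 0.17, adjusted p = 0.00935). Without vehicle 1 the edgeR adjusted p of Ccng1 was 0.0515, and without vehicle 2 that of Mdm2 was 0.215. The call of Trp53 was lost without vehicle 1 (0.716), without vehicle 2 (0.192), without the block (0.101), with no filter on low counts (0.127) and with DESeq2 (0.224).

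Cdkn1a, the cell cycle inhibitor, stood at 818, 1041 and 904 CPM in feeder cells with G2/M transcripts and at 944, 1046 and 1008 without. Its log2 difference of -0.24 (SE 0.14) did not pass the edgeR test (adjusted p = 0.276). Bax at 0.24 and Phlda3 at 0.11 did not pass it either. Feeder cells with G2/M transcripts were deeper, with a median of 4779, 5707 and 3932 UMIs against 3682, 3926 and 2560, and carried more germ marker RNA, at 54.4, 27.0 and 11.7 CPM against 12.2, 11.9 and 3.21. Germ cells had less Ccng1 than feeder cells in the vehicle libraries (43.4 against 181 and 43.5 against 192 CPM) and more in EV 1 (105 against 94.1), and less Mdm2 in all 3. The part of doublets with germ cells in this contrast was not tested.

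In germ cells, 0 of 8 members passed the same test by edgeR, at an adjusted as well as at an unadjusted p under 0.05. By that test 9.55% of all 11499 genes tested were higher and 8.04% were lower with G2/M transcripts. With DESeq2, 0 of 7 members with a value passed, where 239 of all 22903 genes in the fit did, so little can be read from that 0. Cdkn1a had a log2 difference of -0.10 (SE 0.11) and Ccng1 of -0.20 (SE 0.13).

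**Figure D5:**
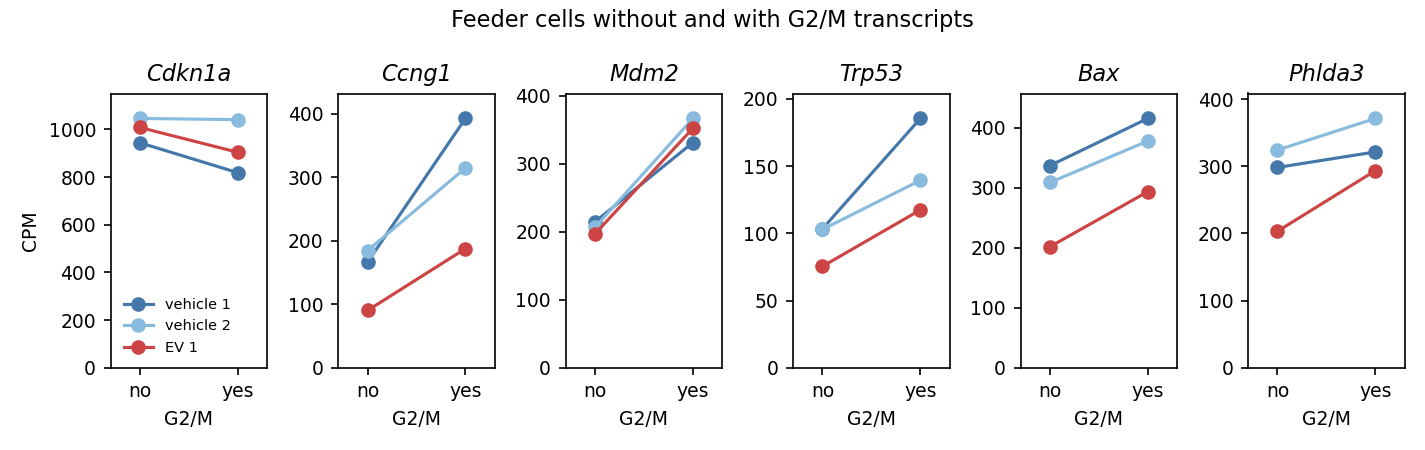
CPM in feeder cells without (no) and with (yes) at least 2 UMIs of the G2/M genes at 1000 UMIs per cell, 1 line per library and 1 panel per gene, with axes from 0 that differ between panels. Ccng1, Mdm2 and Trp53 are higher with G2/M transcripts in all 3 libraries, and Cdkn1a is not.

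Another 36 known p53 targets, a list made with earlier results of these data known, were set beside the members as a description. In feeder cells 33 of them had at least 50 UMIs, of which 14 were at least 1.5-fold lower in EV 1 and 2 were higher (13.7% and 6.83% of all genes), with a median log2 ratio of -0.27 against -0.13 for all genes. The lowest were Psrc1, a mitotic spindle protein, from a vehicle mean of 31.3 to 10.2 CPM, Eda2r, a death receptor relative, from 49.3 to 16.8, and Fas, the death receptor, from 111 to 40.5. Gls2, a mitochondrial glutaminase, was among those that were higher, from 6.08 to 11.7. Psrc1, Eda2r and Fas lay further below the vehicle libraries than any member did.

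In germ cells 34 of the 36 had at least 50 UMIs, of which 16 had a ratio at least 1.5-fold higher and 3 one that much lower (23.5% and 14.7% of all genes), with a median log2 ratio of 0.55 against 0.09. Of the 3, 2 had 0 UMIs in EV 1, so that their ratio rests on the 0.5 UMI added. The list was counted on class totals only. With TMM factors 12.3% of all genes were higher and 30.9% were lower, and with DESeq2 size factors 18.5% and 19.2%. The highest were Gls2 (6 UMIs in EV 1, ratio 5.73, 2.03 to 13.1), Eda2r (5 UMIs, 3.89, 1.23 to 9.45) and Rap2b, a small GTPase (13 UMIs, 2.44, 1.28 to 4.23). Of those that were lower, Tigar had 6 UMIs in EV 1 (ratio 0.608, 0.222 to 1.33) and Triap1 had 0, which makes it at least 1.41-fold lower than the vehicle mean of 13.1 CPM at a floor of 3 UMIs, while the 95% interval of its ratio reaches 0.863. Abhd4 had 0 UMIs and a vehicle mean under that floor, so no fold is given.

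Of 15 regulators of p53, 13 had at least 50 UMIs in each class, and the shares of all genes past 1.5-fold were again 6.83% higher and 13.7% lower in feeder cells and 23.5% higher and 14.7% lower in germ cells. In feeder cells 3 were at least 1.5-fold lower, the checkpoint kinases Chek1 (log2 ratio -2.36, from 5 UMIs in EV 1) and Chek2 (-0.61) and the acetyltransferase Kat5 (-0.70), and 0 were higher. In germ cells the kinase Hipk2 was higher (0.64, 13 UMIs) and Kat5 was lower (-1.54, 2 UMIs, with an interval of the ratio of 0.0331 to 0.995). Of 7 genes of the ATF4 response, 6 had enough UMIs in each class, of which 1 was higher and 0 were lower in feeder cells, while 1 was higher and 2 were lower in germ cells. The germ cell counts rest on 3 UMIs of Trib3 in EV 1 (interval of the ratio 0.676 to 10.4), 2 of Ddit3 (0.0513 to 1.55) and 0 of Atf3, for which no fold is given as its vehicle mean of 6.13 CPM lies under the floor. Trib3 and Atf3 are named here after their values were seen. The ATF4 genes with the most UMIs in feeder cells, Ddit3 (log2 ratio 0.19), Atf4 (-0.18) and Psat1 (0.03), stayed within 1.5-fold there.

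Over the same 36 targets, germ cells were lower than feeder cells for 26 and higher for 7 of 35 tested by edgeR, beside 41.7% and 40.1% of all genes. With G2/M transcripts, 5 of 33 were higher in feeder cells and 0 were lower, beside 7.85% and 5.6% of all genes.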

How the data were processed

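The authors prepared 10x Genomics droplet libraries, 2 per arm, aligned reads to mm10 with GENCODE vM23 and counted UMIs with Cell Ranger 7.0.1. The deposited values are raw UMI counts per gene and called cell, with no normalization. From them, cells were kept by the thresholds of the study (more than 400 genes, fewer than 4000, mitochondrial UMIs below 10%), and doublets were removed by the highest Scrublet scores (scanpy 1.11.5) at 0.8% per 1000 cells, 633, 697 and 198 cells of vehicle 1, vehicle 2 and EV 1. Deposited libraries summed to 23686047, 27444797 and 10793232 UMIs. UMIs were summed per library and class and scaled to the class total. Ratios of EV 1 to the vehicle mean had 0.5 UMI added to each sum, and exact conditional intervals were taken for the ratio to both vehicle libraries pooled. The EV arm had 1 library with counts, so no test across samples was made for it. Classes and cells with and without G2/M transcripts were compared within libraries by edgeR 4.0.16 (R 4.3.3, TMM, filterByExpr), with DESeq2 1.42.0 as an alternative. The fit was tried on simulated data in which few genes changed. That trial does not cover the class contrast, where 40.1% of the genes tested were higher and 41.7% were lower. A gene was called at an adjusted p under 0.05, which here measures the spread between 3 libraries. Sums were paired by library, since both came from the same culture and run. Deviations of paired sums from their group means correlated at 0.068 to 0.098 for the classes, 0.091 to 0.161 for feeder cells and 0.117 to 0.127 for germ cells.

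The members and the lists were chosen with earlier results of these data known. The text names all 10 members, at most 3 of the highest and 3 of the lowest other targets and regulators per class among genes past 1.5-fold that lay further from the nearer vehicle library than the 2 vehicle libraries lay from each other, and the 3 ATF4 genes with the most UMIs in feeder cells. The values of 1 gene that this rule names are not reported here. Col3a1, Col5a2 and Lox were picked from the feeder markers after their values were seen. Some 98.1% to 99.9% of the cells in neither class had under 2 UMIs of either marker set. Positions come from GENCODE M21 on GRCm38, the build of mm10. Trp53 has a processed pseudogene, Bax overlaps Gm45808 and Sesn2 overlaps Gm12981 on the same strand, and Cdkn1a overlaps AC167363.2 on the other strand, so reads shared with these could be lost.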

Additional observations from a re-analysis of the deposited data

Results flagged for a closer look

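In 6 members the EV 1 library lay above both vehicle libraries in germ cells and below both in feeder cells. The log2 ratio of EV 1 over vehicle in germ cells minus that in feeder cells was 2.50 for Bbc3, 2.27 for Ccng1, 2.13 for Zmat3, 1.33 for Phlda3, 1.15 for Bax and 0.59 for Mdm2. With cells in neither class counted as feeder cells, EV 1 lay between the vehicle libraries for Mdm2, and its log2 ratio was -0.0020 for Mdm2 and -0.0032 for Bbc3. With TMM factors the germ cell log2 ratio was 0.07 for Mdm2 and 0.05 for Bax. In cells without G2/M transcripts it was 0.15 for Ccng1, 0.19 for Phlda3 and 0.28 for Mdm2. In those cells it was 0.61 for Bax, 0.73 for Zmat3 and 2.11 for Bbc3. With 1 EV library the difference was not tested, and the genes were chosen on this contrast. The germ cell values of Bbc3, Zmat3 and Phlda3 rest on 4, 10 and 13 UMIs in EV 1.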

How the results depend on the processing

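No paired analysis was possible because counts of a single EV library were at hand, which leaves fewer than 2 pairs of replicate numbers across the arms. Between classes, the edgeR fit without the replicate block called 8 of the 9 members and lost Sesn2, where 11854 of all 15653 genes were called. Between feeder cells with and without G2/M transcripts, it called 2 of 3 and lost Trp53, where 900 of 11778 genes were called. In germ cells it called 0, as with the block, where 1071 of 11499 genes were called. Leaving out 1 library gave 8 to 9 members called between classes, where 9292 of 15529 to 14195 of 16437 genes were called. For G2/M transcripts in feeder cells it gave 1 to 3 members, where 488 of 11783 to 1915 of 12724 genes were called. The fewest members were called without vehicle 1 and without vehicle 2.

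The median log2 ratio of EV 1 over vehicle in germ cells, 0.71, was 0.73 without doublet removal, 0.66 with all deposited barcodes, 1.01 with at least 4 marker UMIs, 0.59 in cells without a UMI of the other class's markers, 0.28 in cells without G2/M transcripts, 0.33 with TMM factors, 0.57 with DESeq2 size factors, 0.28 as a mean over cells and 0.76 with 1 UMI added. The median of all genes, 0.09, was 0.21 in cells without G2/M transcripts, -0.29 with TMM factors, -0.05 with DESeq2 size factors and -0.02 as a mean over cells. It was 0.61 less the other class's RNA, where Cdkn1a and Phlda3 gave no value because the subtraction took their vehicle levels below 0. With those levels set to 0 and 0.5 UMI added, the median over all 9 members was 2.40. Less the share of Col3a1, Col5a2 and Lox, an alternative chosen after seeing the data, it was 0.66, and Cdkn1a itself was at 3.80 on a vehicle level near 0. Members at least 1.5-fold lower in germ cells were 2 in place of 1 with TMM factors and under this last alternative, as Trp53 passed. With TMM factors 30.9% of all genes were that much lower. Leaving out a vehicle library gave a median of the members of 0.59 to 0.84.

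In feeder cells the median, -0.51, was -0.54 without doublet removal, -0.56 with all deposited barcodes, -0.47 with at least 4 marker UMIs, -0.52 in cells without a UMI of the other class's markers, -0.45 in cells without G2/M transcripts, -0.44 with TMM factors, -0.42 with DESeq2 size factors, -0.52 as a mean over cells and -0.49 less the other class's RNA. Counting cells in neither class as feeder cells, chosen after seeing the data, gave -0.47, and leaving out a vehicle library gave -0.53 to -0.49.

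No called EV ratio of a member changed its sign under these alternatives. Of values that were not called, Cdkn1a in feeder cells, 0.013 as reported, was at -0.012 in cells without a UMI of the other class's markers, at -0.011 as a mean over cells and at -0.067 without vehicle 1 on the log2 scale, and at 0.098 without vehicle 2. Differences not called by edgeR changed sign for Phlda3 with G2/M transcripts in feeder cells (-0.025 with no filter on low counts) and, in germ cells, with no filter, for Mdm2 (0.012) and Trp53 (0.0067). Leaving out 1 library gave -0.210 to 0.094 for Cdkn1a, -0.066 to 0.071 for Mdm2, -0.249 to 0.063 for Ccng1, -0.078 to 0.067 for Bax and -0.454 to 0.072 for Zmat3. The depth of EV 1 germ cells limits every ratio there, as 3 UMIs are worth 9.25 CPM.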
